A study of Mus musculus with 16 samples.

Results

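The 10 genes described here encode core parts and a receptor of autophagy: Sqstm1, Map1lc3a, Map1lc3b, Gabarap, Gabarapl1, Becn1, Atg5, Atg7, Ulk1 and Wipi1. They were chosen by symbol, with no expression value in the rule but with earlier results of these data known. They came from a table of 25105 mouse genes, and all 10 symbols had a row. The table held poly(A) RNA-seq of 16 libraries of dispersed mouse islet cells, the endocrine cells of the pancreas separated from each other with trypsin and cultured for 72 h in 15 mM glucose. All mice carried Grp78 flox/flox alleles, in which the gene for the endoplasmic reticulum (ER) chaperone GRP78 (symbol Hspa5) can be cut by Cre recombinase. The 4 groups, with 4 libraries each, were Ad-LacZ + DMSO (an adenovirus carrying a bacterial control enzyme, called Ad-LacZ below), Ad-Cre + DMSO (a virus carrying Cre, called Ad-Cre), Ad-LacZ with the pan JNK inhibitor JNK-IN-8, and Ad-Cre with JNK-IN-8. The inhibitor, which blocks the stress kinases of the JNK family, was present from the start of the culture. Each group has 1 library from each of 4 preparations of islets, which the labels number F1, F2, M1 and M2. Each of these appears in every group, so the groups are parallel cultures of the same preparations. The labels join a pair of numbers for each preparation, but whether it holds the islets of a single mouse or a pool is not settled by the sources used here. The viruses carried a general viral promoter and were added to all dispersed islet cells, so the expression of Cre was not restricted to β cells.

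Autophagy is the route by which a cell encloses proteins, damaged organelles or pieces of ER in a membrane and delivers them to the lysosome for breakdown. A kinase complex around ULK1 starts the process, a lipid kinase complex around Beclin 1 marks the membrane with a phosphoinositide, WIPI proteins read that mark, and ATG7 and ATG5 take part in attaching small ubiquitin-like proteins of the ATG8 family (the LC3 and GABARAP proteins) to the growing membrane. Receptors such as p62, the product of Sqstm1, bind ubiquitinated cargo and ATG8 proteins together. In β cells, which make large amounts of secretory protein, autophagy is known as a route for clearing excess or misfolded proinsulin and ER. The genes of the pathway are known targets of stress regulators, among them ATF4 and CHOP (Ddit3) of the ER stress response, NRF2 of the oxidative stress response, and TFEB and TFE3 of the lysosomal response. The abundance of these RNAs does not measure the flux of material through autophagy.

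Sqstm1 (chr11:50199366-50210827, minus strand; GRCm38 with GENCODE M21 for all positions of genes) encodes the receptor. The LC3 genes Map1lc3a (chr2:155276297-155278073, plus strand) and Map1lc3b (chr8:121590361-121598760, plus strand) and the GABARAP genes Gabarap (chr11:69991143-69994951, plus strand) and Gabarapl1 (chr6:129533160-129542346, plus strand) encode ATG8 proteins. Becn1 (chr11:101285952-101302286, minus strand) encodes Beclin 1. The conjugation genes were Atg5 (chr10:44268358-44364291, plus strand) and Atg7 (chr6:114643097-114860614, plus strand). Ulk1 (chr5:110784488-110810097, minus strand) encodes the initiating kinase and Wipi1 (chr11:109573331-109611967, minus strand) a reader of the phosphoinositide mark. All are protein coding. Exons of Sqstm1 overlap those of Mrnip on the opposite strand, and Becn1 overlaps Cntd1 and Gabarapl1 overlaps 1700101I11Rik in the same way. The strand setting of the counting is not given in the sources used here, so reads from such pairs cannot be told apart, but the partners were listed at no more than 2.27, 0.21 and 0.28 RPKM in any library. Map1lc3b shares 79 windows of 150 bases, the read length, with the pseudogene Gm6055 and overlaps Zcchc14 on the opposite strand, so its level is less certain in this respect.

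The promoters are shown because known regulators of the members bind particular letters. Whether the motifs have a part in the fold changes described below was not tested. Promoter sequences of RefSeq (GRCm38.p6, from 250 bases before to 50 after the annotated start) matched 8 of the 10 members, all but Map1lc3a and Becn1. In this window the antioxidant response element of NRF2, searched as TGACNNNGC on both strands, was found in 1 of these 8, Map1lc3b, against 12.4% of all 32851 promoters. The E-box of TFEB and TFE3, CACGTG, was found in Atg5 and Atg7, against 7.15% of all promoters. The ATF4 and C/EBP composite element TGATGNAA (3.97% of all promoters), the AP-1 element TGANTCA (7.81%), the ER stress element in its full form (0.119%) and the UPR element TGACGTGG (0.676%) were found in none of the 8 windows. None of these searched motifs overlapped another in the members. The matches are shown with flanking bases in lower case and the match in capitals, 5′ to 3′. The first starts 4 bases after the RefSeq start of Map1lc3b. The others start 14 bases before that of Atg5 and 132 bases before that of Atg7. These RefSeq starts differ from the first bases of the genes given above. The whole window of Atg7 (chr6:114670846-114671145), with its match, lies inside the span given for that gene.
Map1lc3b: tcaccTGACTCGGCtgcgg
Atg5: cttgcCACGTGgtctt
Atg7: gtggtCACGTGtgcag

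The sequence ahead of the genes with the largest and the second largest fold change, Sqstm1 and Map1lc3b, up to the base before the first annotated base of the gene, is printed in lower case 5′ to 3′ on the strand of the gene. The stretches are chr11:50210828-50211070 on the minus strand for Sqstm1, in which an exon of the neighbouring gene Mgat4b also lies, and chr8:121590188-121590360 on the plus strand for Map1lc3b. No capitals appear because none of the searched motifs lay in either stretch.
Sqstm1: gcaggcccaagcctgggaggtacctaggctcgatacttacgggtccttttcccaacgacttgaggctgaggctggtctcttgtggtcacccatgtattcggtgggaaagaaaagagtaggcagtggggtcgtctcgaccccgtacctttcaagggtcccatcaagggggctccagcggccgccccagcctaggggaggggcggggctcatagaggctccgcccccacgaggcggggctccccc
Map1lc3b: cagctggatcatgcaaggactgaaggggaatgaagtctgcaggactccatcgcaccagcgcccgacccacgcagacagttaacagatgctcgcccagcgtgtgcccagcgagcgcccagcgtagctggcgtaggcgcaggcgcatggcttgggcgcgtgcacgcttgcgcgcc
Gabarapl1, the member whose RPKM was lower in all 4 preparations under Ad-Cre both with and without the inhibitor, is given for comparison, from chr6:129532942-129533159 on the plus strand.
Gabarapl1: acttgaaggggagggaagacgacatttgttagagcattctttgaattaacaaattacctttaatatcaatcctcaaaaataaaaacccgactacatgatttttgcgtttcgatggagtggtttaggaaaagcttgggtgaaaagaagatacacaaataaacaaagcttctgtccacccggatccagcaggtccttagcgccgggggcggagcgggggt

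The values were deposited as RPKM, reads per kilobase of gene and per megaread of library, which corrects for gene length and depth. Depths estimated from the even steps between low values were 15.7 to 23.0 megareads in Ad-LacZ, 14.3 to 23.8 in Ad-Cre, 21.2 to 25.5 in Ad-LacZ with inhibitor and 7.72 to 20.8 in Ad-Cre with inhibitor, whose shallowest library, F2, has another prefix and lane number in its header than the rest. The lowest of these estimates lie below the range of paired-end counts per sample in the study's methods, and the reason was not tested. Hspa5, the targeted gene, was higher and not lower in the libraries labelled Ad-Cre: 1260 ± 231 RPKM against 438 ± 49 in Ad-LacZ, and 1410 ± 189 against 410 ± 58.4 with inhibitor (SD, n = 4 each). A value per gene cannot tell floxed exons from other exons and does not check the deletion. The study also measured Grp78 by qPCR in parallel aliquots, which was not analysed here. Every direction below is that of the libraries as labelled. The 6 β cell markers summed to 33100 to 83900 RPKM over all libraries, nearly all of it insulin RNA (Ins1 and Ins2), and 4 of 5 acinar markers were below 1 RPKM in every library.

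The other β cell markers described here were named after their values were seen. Mafa, a β cell transcription factor, was at 395 ± 99.6 RPKM in Ad-LacZ and 145 ± 91 in Ad-Cre (log2 fold change −1.64 ± 0.5, adjusted p = 0.052), without overlap. Slc2a2, the glucose transporter GLUT2, was at −1.25 ± 0.45 (adjusted p = 0.0823) and the transcription factor Nkx6-1 at −0.75 ± 0.31 (adjusted p = 0.117). The remaining markers, Ins1 (−0.35), Ins2 (−0.15) and Iapp (−0.26), had adjusted p values from 0.589 to 0.843. None of the 6 was called, beside 19% of all genes, and 3 had an unadjusted p under 0.05, beside 34.7% of all genes. With the block these 3 were lower and none higher, beside 17.1% of all genes lower. With the inhibitor in both arms Mafa (−1.69, adjusted p = 0.015) and Slc2a2 (−1.67, adjusted p = 0.0147) fell, beside 9.67% of all genes lower. With the block 3 were lower and 1 higher, beside 10.4% of all genes lower and 13.5% higher. The part of the β cell markers in the results below was not tested.

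Sums of the 8 macrophage markers were 70.1 to 78.6 RPKM in Ad-LacZ, 69.8 to 206 in Ad-Cre, 136 to 313 in Ad-LacZ with inhibitor and 174 to 292 in Ad-Cre with inhibitor. The 5 markers of stellate cells and fibroblasts summed to 23.5 to 105, 21.8 to 662, 43.5 to 503 and 25.6 to 144 RPKM in the same order. No marker of either list was at 0 in all libraries, the macrophage sums were higher with the inhibitor in every preparation and virus, and their part in the results below was not tested. Taken singly, 7 of the 7 macrophage markers tested were above 0 for Ad-Cre against Ad-LacZ without the inhibitor (median log2 fold change 0.91). Of these 2 were called higher, beside 9.2% of all genes, and 4 with the block, beside 17.6%. With the inhibitor in both arms 3 were above 0 (median −0.01, none called). The medians of the stellate cell and fibroblast markers were 1.08 and −1.2 in these comparisons, with none called without the block. For the inhibitor within Ad-Cre, 3 of the 7 macrophage markers were above 0 (median −0.02, none called). Within Ad-LacZ 7 of 7 were above 0 (median 0.77, 1 called, beside 0.206% of all genes). In these bulk samples, fewer cells of a type and less RNA per cell cannot be told apart. The library Ad-Cre with inhibitor M2 stood apart from its group, with a sum of the 3 delta cell markers of 6830 RPKM against 2470 to 3840 in the other 3, and 8 of the 10 members were lowest there within the group. The delta cell sums were also higher in all 4 libraries of Ad-Cre with inhibitor than in their Ad-Cre partners, which were at 1130 to 2550 RPKM. The median log2 fold change of the delta markers was 0.87 for Ad-Cre against Ad-LacZ with inhibitor and 0.83 for the inhibitor within Ad-Cre, and that of the 4 alpha cell markers 0.59 and 0.49, with none called without the block. Their part in the results was not tested. Results that turn on it are given with and without it.

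On the RPKM scale, which corrects for gene length and so allows genes to be compared, Sqstm1 stood above all other members in every group, with no overlap. Its mean in Ad-LacZ was at percentile 99.1 of 12274 expressed genes. Below it in Ad-LacZ the order was Wipi1 (58.9 ± 17.6 RPKM), Gabarapl1 (46.5 ± 2.67), Gabarap (25.3 ± 5.53), Atg5 (19.2 ± 0.859), Becn1 (16.8 ± 1.16), Map1lc3a (16.1 ± 4.27), Map1lc3b (14.2 ± 0.897), Ulk1 (9.57 ± 1.64) and Atg7 (3.89 ± 0.693; SD, n = 4 each). Neighbours in this order whose ranges overlapped were Wipi1 and Gabarapl1, Gabarap and Atg5, Becn1 and Map1lc3a, and Map1lc3a and Map1lc3b. Atg7 was the lowest member in all 4 groups, at percentile 33.5 in Ad-LacZ. The main change of order was that of Map1lc3b, which stood at percentile 71.8 in Ad-LacZ and 85.5 in Ad-Cre, and at 72.0 and 90.6 with the inhibitor.

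**Figure D1:**
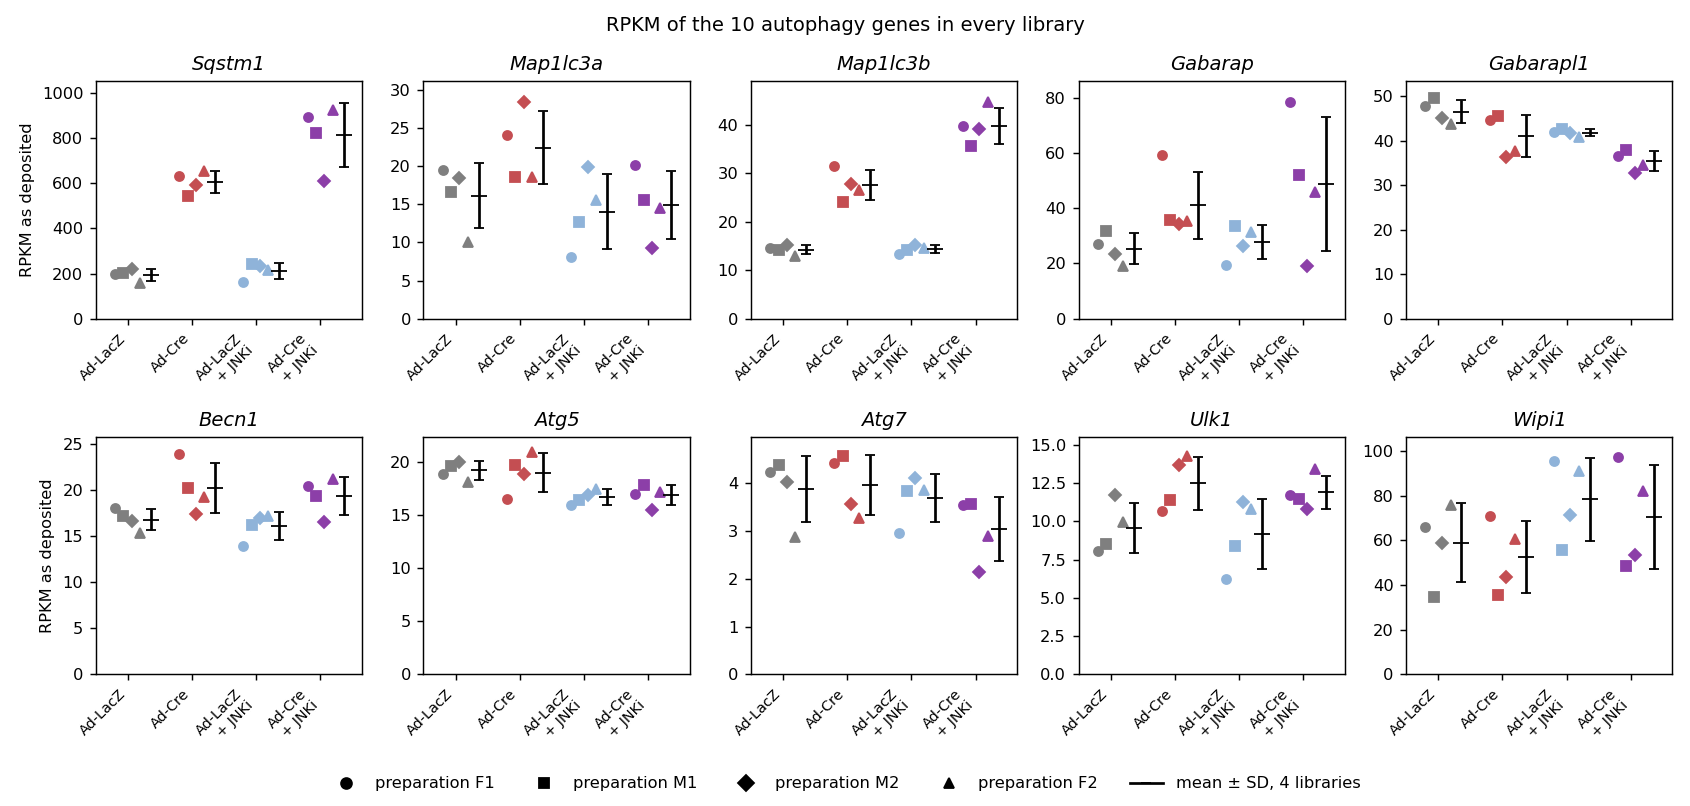
RPKM of each of the 10 autophagy genes (panels, linear axes from 0) in the 16 libraries, grouped by virus and inhibitor; each marker is 1 library, its shape gives the preparation, and the bar shows the mean ± SD of 4. Sqstm1 (544 to 653 RPKM in Ad-Cre against 157 to 222 in Ad-LacZ) and Map1lc3b (24.1 to 31.5 against 13.0 to 15.1) separate by virus with no overlap, while Wipi1 spreads by preparation in every group.

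Under Ad-Cre without the inhibitor, 3 of the 10 genes rose and none fell: Sqstm1 by a factor of 3.16, Map1lc3b by 1.9 and Ulk1 by 1.3. All 10 passed the filter on low values. A call here is an adjusted p under 0.05 from limma on log2(RPKM + 1) after scaling, adjusted over all 11590 genes tested. In this comparison 19% of all genes were called, 9.2% higher and 9.79% lower. With the preparation as a block, 6 of the 10 were higher and none lower, against 34.7% of all genes called and 17.6% called higher. The median log2 fold change was 0.33 over the members and 0.02 over all genes tested, and 8 of 10 members were above 0. By the criteria of the study's methods (unadjusted p under 0.05 and a fold change of 1.5), 3 members were higher, Sqstm1, Map1lc3b and Gabarap, against 10.2% of all genes called, 5.52% higher. Unadjusted, 5 members had a p under 0.05, as did 34.7% of all genes. Because the labels name preparations and not repeated cultures, the p-values measure the spread between these 4 libraries a group.

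Sqstm1, the cargo receptor, stood at 200, 203, 222 and 157 RPKM under Ad-LacZ (preparations in the order F1, M1, M2, F2 here and below) and at 632, 544, 593 and 653 under Ad-Cre. Every Ad-Cre library was above every Ad-LacZ library. These levels rest on 10719 to 17098 and 30268 to 51449 reads a library. This was a log2 fold change of 1.66 ± 0.14 (SE), a factor of 3.16 (adjusted p = 0.000672), which ranked 35 of 11590 genes from the top. Quantile scaling, which forces all libraries to the same distribution, gave 1.25 (adjusted p = 0.00105).

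With the inhibitor, Sqstm1 stood at 162, 243, 232 and 215 RPKM in F1, M1, M2 and F2 under Ad-LacZ, and at 895, 823, 610 and 926 under Ad-Cre. The groups again did not overlap, and M2 was the lowest of the Ad-Cre libraries. On the log2 scale the difference was 2.09 ± 0.18, a factor of 4.25 (adjusted p = 0.000353), rank 29 of 11598. It was 1.40 with quantile scaling and 2.21 without the library Ad-Cre with inhibitor M2 (adjusted p = 0.000164).

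Map1lc3b, which encodes the LC3 protein most often followed as a marker of autophagosomes, was at 14.5, 14.1, 15.1 and 13.0 RPKM under Ad-LacZ and at 31.5, 24.1, 27.7 and 26.5 under Ad-Cre (F1, M1, M2, F2). The spread within Ad-LacZ was small and the groups did not overlap. The log2 fold change was 0.93 ± 0.11, a factor of 1.9 (adjusted p = 0.00211), rank 212 of 11590. Under the inhibitor it was at 13.4, 14.1, 15.2 and 14.6 RPKM with Ad-LacZ and 39.6, 35.6, 39.0 and 44.7 with Ad-Cre, where even the library that stood apart lay within the range of its group. Its log2 fold change there was 1.56 ± 0.11, a factor of 2.95 (adjusted p = 0.000135), rank 78 of 11598. Sqstm1 and Map1lc3b were called with every preparation left out in turn, in both comparisons of the virus.

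Map1lc3a, the other LC3 gene, was at 19.5, 16.6, 18.4 and 9.98 RPKM under Ad-LacZ and 24, 18.5, 28.4 and 18.6 under Ad-Cre. Ad-Cre was higher within each preparation, but the groups overlapped. Its log2 fold change of 0.49 ± 0.21 was not called (adjusted p = 0.138) until the preparation was a block (SE 0.12, adjusted p = 0.0164). With the inhibitor the value was 0.25 ± 0.25 (adjusted p = 0.5), from 8.03, 12.7, 19.8 and 15.6 RPKM under Ad-LacZ and 20.1, 15.6, 9.3 and 14.5 under Ad-Cre. These groups overlapped almost wholly, and M2 was the highest library of the former and the lowest of the latter. Without preparation M2 the value was 0.56 (adjusted p = 0.0612), and without the library Ad-Cre with inhibitor M2 alone 0.43 (adjusted p = 0.166).

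Gabarap was at 27, 31.9, 23.3 and 18.9 RPKM under Ad-LacZ and 59.1, 35.6, 34.1 and 35.3 under Ad-Cre. The groups did not overlap, but F1 lay far above the other Ad-Cre libraries. Members not overlapping between the groups in RPKM were Sqstm1, Map1lc3b and Gabarap, all higher, against 27.7% of all genes (11.8% higher). The log2 fold change of Gabarap was 0.69 ± 0.24 (adjusted p = 0.0783), and it was called with the block (adjusted p = 0.0131). With the inhibitor the values were 19.5, 33.6, 26.3 and 31.3 RPKM under Ad-LacZ and 78.3, 51.8, 19.2 and 45.7 under Ad-Cre, so 3 preparations were higher with Ad-Cre and M2 was lower. A log2 fold change of 0.82 ± 0.37 was not called (adjusted p = 0.141). It was 1.19 (adjusted p = 0.00534) without the library Ad-Cre with inhibitor M2 and 0.41 (adjusted p = 0.484) without preparation F1, so these libraries decided it.

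Gabarapl1, the other GABARAP gene of the list, went the other way in RPKM. It was at 47.7, 49.6, 45 and 43.6 RPKM under Ad-LacZ and 44.5, 45.5, 36.2 and 37.6 under Ad-Cre, lower in 4 of 4 preparations with overlapping groups. The log2 fold change was −0.16 ± 0.14 (adjusted p = 0.455). With the inhibitor it was at 42, 42.5, 41.8 and 40.8 RPKM under Ad-LacZ and 36.5, 37.8, 32.7 and 34.6 under Ad-Cre, with no overlap. Here 29.7% of all genes did not overlap in RPKM, 8.93% higher and 20.7% lower, and among the members Sqstm1 and Map1lc3b were higher and Gabarapl1 lower. After scaling the difference shrank to −0.08 ± 0.13 (adjusted p = 0.711), while quantile scaling gave −0.30 (adjusted p = 0.0433). In that comparison the median of all genes was −0.14 on RPKM as deposited and −0.01 after scaling, so the size of this difference depends on the scaling.

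Ulk1 was at 8.07, 8.55, 11.7 and 9.95 RPKM under Ad-LacZ and 10.7, 11.4, 13.7 and 14.3 under Ad-Cre. All 4 preparations were higher with Ad-Cre, and the groups overlapped in RPKM because Ad-LacZ M2 lay above the lowest Ad-Cre libraries. The log2 fold change was 0.38 ± 0.1, a factor of 1.3 (adjusted p = 0.034; 0.0117 with the block), but 0.36 with adjusted p = 0.0967 on RPKM as deposited. With the inhibitor Ulk1 was at 6.25, 8.42, 11.3 and 10.8 RPKM under Ad-LacZ and 11.7, 11.5, 10.8 and 13.4 under Ad-Cre, higher in 3 of 4 preparations as RPKM. With it the log2 fold change was 0.51 ± 0.12, a factor of 1.43 (adjusted p = 0.0182), and 0.36 on RPKM as deposited (adjusted p = 0.155). Leaving out any preparation ended the call without the inhibitor (adjusted p from 0.0676 to 0.148), as did leaving out F1, M1 or F2 with it.

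Becn1 was at 18, 17.2, 16.6 and 15.3 RPKM under Ad-LacZ and 23.9, 20.2, 17.4 and 19.3 under Ad-Cre, higher in each preparation with overlapping groups. The log2 fold change was 0.27 ± 0.14 (adjusted p = 0.207), and 0.0497 was the adjusted p with the block. With the inhibitor the levels were 13.9, 16.2, 17 and 17.2 RPKM under Ad-LacZ and 20.4, 19.4, 16.5 and 21.2 under Ad-Cre, where M2 was the library below its own control. A log2 fold change of 0.41 ± 0.11, a factor of 1.33, was called (adjusted p = 0.0297) but not on RPKM as deposited (0.26, adjusted p = 0.144) or without F1, M1 or F2.

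Atg5, Atg7 and Wipi1 were not called under Ad-Cre, with or without the inhibitor. Atg5 stood at 18.1 to 20 RPKM in Ad-LacZ and 16.5 to 20.9 in Ad-Cre (log2 fold change 0.01 ± 0.09, adjusted p = 0.963), and its value with the inhibitor was 0.17 ± 0.11 (adjusted p = 0.302). Atg7 stood at 2.87 to 4.39 RPKM in Ad-LacZ and 3.28 to 4.57 in Ad-Cre (0.05 ± 0.16, adjusted p = 0.863; −0.10 ± 0.14 with the inhibitor, adjusted p = 0.649). Both thus lay within the spread of the libraries. Wipi1 was at 66.1, 34.6, 59 and 75.8 RPKM under Ad-LacZ and 70.8, 35.4, 43.6 and 60.8 under Ad-Cre, higher in 2 preparations and lower in 2 (−0.13 ± 0.29, adjusted p = 0.782). In all 4 groups M1 was the lowest library for Wipi1, so its spread followed the preparation.

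With the inhibitor present in both arms, 4 of the 10 members were higher with Ad-Cre (Sqstm1, Map1lc3b, Ulk1 and Becn1) and none lower, against 21.7% of all 11598 genes called, 12.1% higher and 9.67% lower. The same 4 had an unadjusted p under 0.05, beside 36.5% of all genes. The block left the count at 4, beside 23.9% of all genes, 13.5% higher. The median over the members was 0.33 and over all genes −0.01. The count was 2 on RPKM as deposited and 2 without the shallow library Ad-Cre with inhibitor F2, with Sqstm1 and Map1lc3b remaining. Without the library Ad-Cre with inhibitor M2 it was 5, these 4 and Gabarap.

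**Figure D2:**
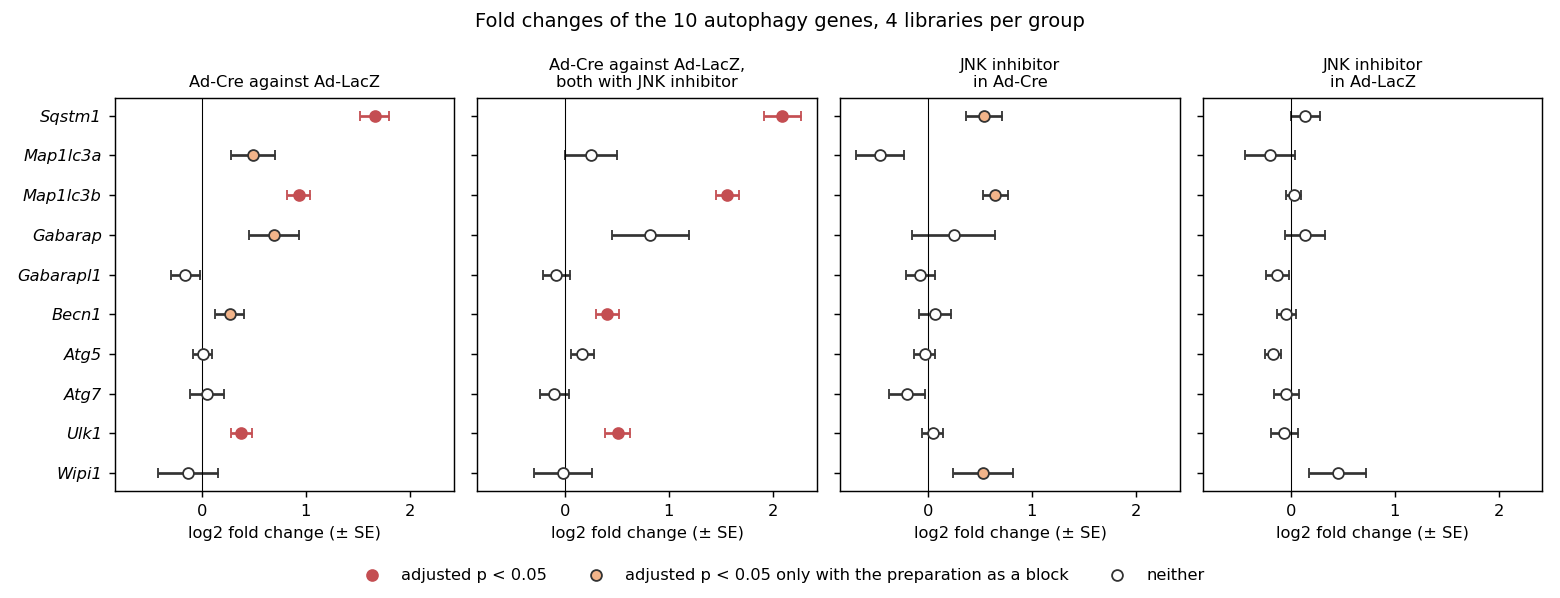
Log2 fold change ± SE of each member (rows) in the 4 comparisons (panels) from limma on scaled log2(RPKM + 1), n = 4 against 4; red marks an adjusted p under 0.05 and orange a gene called only with the preparation as a block. Sqstm1 (1.66 and 2.09) and Map1lc3b (0.93 and 1.56) lie farthest from 0 in the comparisons of the virus, and no member is red in the comparisons of the inhibitor.

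The inhibitor was then compared with DMSO within each virus, which asks whether blocking JNK moved these RNAs. The DMSO and inhibitor libraries of Ad-Cre are shared with the comparisons above. Within Ad-Cre no member was called, as no gene of 11503 was (0% of all genes), while 2 members, Map1lc3b and Sqstm1, had an unadjusted p under 0.05 as 9.54% of all genes did. With the preparation as a block, 3 members were higher, Sqstm1, Map1lc3b and Wipi1, and none lower, against 6.08% of all genes called and 3.8% higher. By the study's criteria with a fold change of 1.2, 2 were called higher, Map1lc3b and Sqstm1, beside 8.81% of all genes, 5.46% higher. The median over the members was 0.06 and over all genes −0.03.

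Map1lc3b was at 24.1 to 31.5 RPKM in Ad-Cre and 35.6 to 44.7 in Ad-Cre with inhibitor, with no overlap, the only member of which this held, beside 11.5% of all genes (1.86% higher). Its log2 fold change was 0.65 ± 0.12, a factor of 1.56 (adjusted p = 0.186; 0.0237 with the block), rank 157 of 11503. In a fit of all 16 libraries together the value was 0.68 (adjusted p = 0.00696). Sqstm1 was at 544 to 653 and 610 to 926 RPKM, and M2 was the preparation with the least difference. Its value was 0.54 ± 0.17, a factor of 1.46 (adjusted p = 0.351; 0.0345 with the block), and 0.12 with quantile scaling. Without preparation M2 and with the block, Sqstm1 was at 0.65 (adjusted p = 0.00306). Without preparation F2 and with the block, neither was called (adjusted p = 0.169 for Sqstm1 and 0.146 for Map1lc3b).

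Wipi1 was the member whose difference with the inhibitor was most even. It was at 97.5, 48.7, 53.6 and 81.9 RPKM with the inhibitor against 70.8, 35.4, 43.6 and 60.8 without it, so each preparation was higher although the groups overlapped. The log2 differences within the preparations were 0.56, 0.53, 0.51 and 0.54. Without the block the value was 0.53 ± 0.29 (adjusted p = 0.614), and with it the SE was 0.06 (adjusted p = 0.019). Without preparation F2 the blocked adjusted p was 0.146. Under Ad-LacZ the 4 preparations were also higher with the inhibitor, by 0.67, 0.67, 0.3 and 0.17 on the log2 scale (0.45 ± 0.27, adjusted p = 0.944; 0.201 with the block).

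Of the other members within Ad-Cre, Gabarap was at 0.25 ± 0.4 (adjusted p = 0.905), and at 0.55 with the block and without preparation M2 (adjusted p = 0.00298). Map1lc3a was at −0.46 ± 0.23 (adjusted p = 0.582), of which −0.16 remained without M2. Gabarapl1, Becn1, Atg5, Atg7 and Ulk1 lay between −0.20 and 0.07, and Atg7 at −0.20 was lower in all 4 preparations without being called.

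**Figure D3:**
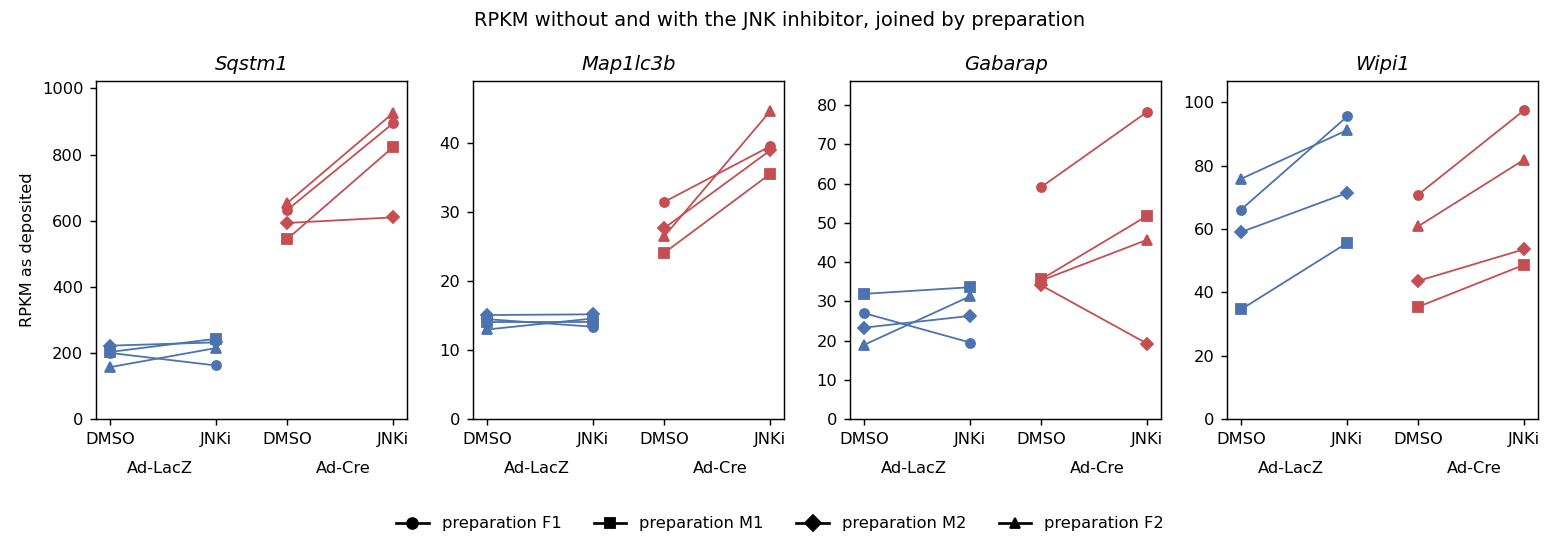
RPKM (linear axes) of Sqstm1, Map1lc3b, Gabarap and Wipi1 with DMSO and with the JNK inhibitor, lines joining the libraries of 1 preparation, blue for Ad-LacZ and red for Ad-Cre. In Ad-Cre the 4 lines of Map1lc3b and of Wipi1 rise, and the line of M2 for Gabarap falls from 34.1 to 19.2 RPKM while those of the other 3 preparations rise.

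Within Ad-LacZ no member was called without the block or with it (0.36% of all genes with it), and none had an unadjusted p under 0.05, against 24 of 11657 genes called (0.206%) and 6.35% of all genes at an unadjusted p under 0.05. Sqstm1 was at 157 to 222 RPKM without and 162 to 243 with the inhibitor (0.14 ± 0.14), and Map1lc3b at 13.0 to 15.1 and 13.4 to 15.2 (0.03 ± 0.07). Both pairs of groups overlapped. Atg5 did not overlap, at 18.1 to 20 RPKM without and 15.9 to 17.5 with the inhibitor, lower in 4 of 4 preparations, beside 4.84% of all genes not overlapping (1.79% higher, 3.05% lower). Its log2 fold change was −0.17 ± 0.08 (adjusted p = 0.802). Gabarapl1 was also lower without overlap, at 43.6 to 49.6 and 40.8 to 42.5 RPKM, with a log2 fold change of −0.13.

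Whether the difference between the viruses itself changed with the inhibitor was tested as an interaction over all 16 libraries. No member passed, beside 2 of 12274 genes (0.0163%; 0% with the block), and 1 member, Map1lc3b, had an unadjusted p under 0.05, as had 3.48% of all genes. The interaction of Map1lc3b was 0.64 ± 0.14 on the log2 scale (unadjusted p = 0.000451, adjusted p = 0.425; 0.0958 with the block), rank 88 of 12274. Within preparations F1, M1, M2 and F2 the log2 difference between the viruses for this gene was 1.14, 0.77, 0.87 and 0.93 without the inhibitor and 1.48, 1.39, 1.61 and 1.76 with it. Each preparation was larger with the inhibitor and the values did not overlap (mean difference 0.63). The two-sided exact permutation test that exchanges the values within each preparation gave p = 0.125, the smallest that 4 preparations allow. For Sqstm1 the differences were 1.73, 1.45, 1.46 and 2.00 without and 2.44, 1.86, 1.72 and 2.33 with it, which overlapped (mean difference 0.43, larger in 4 of 4 preparations, p = 0.125 by the same exact test). The interaction of Sqstm1 was 0.43 ± 0.22 (adjusted p = 1.0), and 0.07 with quantile scaling.

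Because the ATG8 proteins share a role, the makeup of the summed RPKM of the 5 ATG8 genes in the table (the 4 members and Gabarapl2) was also described. The sum was 145 ± 17.4 RPKM in Ad-LacZ, 188 ± 26 in Ad-Cre, 140 ± 13.5 in Ad-LacZ with inhibitor and 211 ± 41.5 in Ad-Cre with inhibitor (SD, n = 4 each). Map1lc3b took 9.1, 9.18, 10.3 and 10.8% of it in Ad-LacZ and 13.9, 13.5, 15.8 and 15.4% in Ad-Cre. The groups did not overlap, and with the inhibitor the mean share was 10.3 ± 0.596% in Ad-LacZ and 19.4 ± 4.47% in Ad-Cre, the latter with 25.2% in M2. The share of Gabarapl1 moved the other way, from a mean of 32.3% in Ad-LacZ to 21.9% in Ad-Cre, and from 30.1 to 17.2% with the inhibitor. Gabarapl2 held 29.5, 30.0, 30.2 and 34.4% in the 4 groups. Shares add to a whole, so a rise of any of these genes lowers the others, and no test was made of them.

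**Figure D4:**
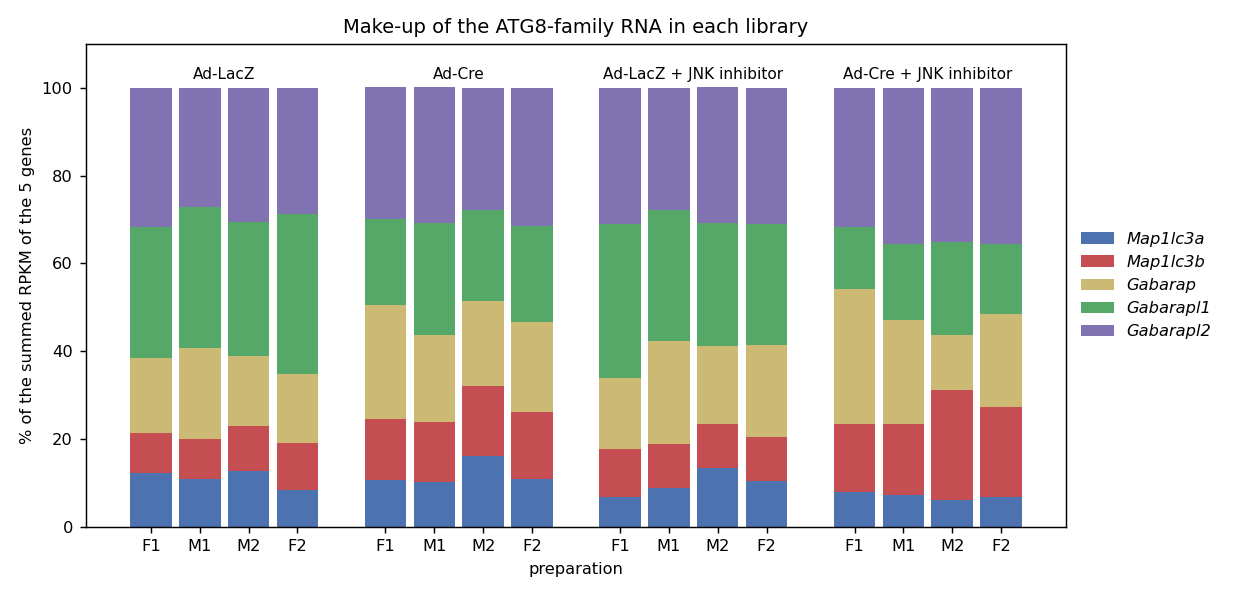
Share of each of 5 ATG8 genes in their summed RPKM (percent, stacked to the whole) in the 16 libraries, grouped by virus and inhibitor. The share of Map1lc3b is 9.1 to 10.8% in Ad-LacZ and 13.5 to 15.8% in Ad-Cre, and that of Gabarapl1 is smaller in Ad-Cre than in Ad-LacZ in each preparation.

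The rest of the pathway was described from a list of 62 other autophagy genes, of which 61 passed the filter. Under Ad-Cre 6 were higher and 5 lower (18%, beside the 19% of all genes), and the median was 0.10. The block gave 11 higher and 9 lower, beside 34.7% of all genes. Among genes of membrane supply, Tmem41b, an ER lipid scramblase, was at 7.44, 8.34, 9.16 and 8.1 RPKM in Ad-LacZ and 13.1, 15.4, 16.5 and 21.8 in Ad-Cre. These groups did not overlap, and the log2 fold change was 0.94 ± 0.12 (adjusted p = 0.00259). Ykt6, a SNARE of the fusion with the lysosome, was at 47.8 to 57.4 and 78.8 to 99.4 RPKM (0.81 ± 0.11, adjusted p = 0.00319). Wdr45b, a relative of Wipi1, rose by 0.50 (adjusted p = 0.00945), and Atg101, a partner of ULK1, by 0.50 (adjusted p = 0.0315).

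The genes that fell included Prkaa1, a catalytic subunit of AMPK, the energy sensor that activates ULK1. It was at 34.2, 35.5, 35.9 and 36.8 RPKM in Ad-LacZ and 20.8, 28.7, 21.7 and 23.3 in Ad-Cre, without overlap (−0.56 ± 0.12, adjusted p = 0.0173). The cargo receptor gene Tax1bp1 was at −0.50 (adjusted p = 0.0142), the conjugation gene Atg10 at −0.49 (adjusted p = 0.028) and Rb1cc1, the scaffold of the ULK1 complex, at −0.44 (adjusted p = 0.0465). Atg4a, named after its values were seen, was the fifth (−0.42, adjusted p = 0.0299) and encodes a protease that trims ATG8 proteins. By role, 3 of 9 genes of the readers of the phosphoinositide mark and membrane supply were higher and none lower. Of the conjugation genes 2 of 8 were lower and none higher, and 1 of 8 other cargo receptors was lower and none higher. Of the ER-phagy receptors 0 of 6 were called in either direction (2 of 6 at an unadjusted p under 0.05, beside 34.7% of all genes). The ULK1 complex had 1 of 4 higher and 1 of 4 lower. In the lipid kinase complex of Becn1, 1 of 6 other genes was higher and none lower, with a median of −0.17. With the block 1 of these 6 was higher and 3 were lower, beside 17.6% of all genes higher and 17.1% lower. Of all genes 9.2% were called higher and 9.79% lower. Each role holds few genes, and whether any role differs from all genes was not tested.

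With the inhibitor in both arms, 8 of the 61 were higher and 1 lower (14.8%, beside 21.7% of all genes called, 12.1% higher and 9.67% lower), and the median was 0.06. Tmem41b was at 8.05 to 9.39 RPKM in Ad-LacZ and 16.2 to 21.3 in Ad-Cre (1.2 ± 0.14, adjusted p = 0.000911), Ykt6 at 1.12 ± 0.2 (adjusted p = 0.00507) and Wdr45b at 0.75 (adjusted p = 0.00414). Gabarapl2, the ATG8 gene outside the members, was at 37.4, 39.7, 45.8 and 46 RPKM in Ad-LacZ and 80.2, 77.6, 54.3 and 77.1 in Ad-Cre. The groups did not overlap, M2 was the lowest of the latter, and the log2 fold change was 0.91 ± 0.15 (adjusted p = 0.00367) against 0.42 without the inhibitor (adjusted p = 0.114; 0.0177 with the block). Prkaa1 was again the gene that fell (−0.62 ± 0.15, adjusted p = 0.0173). For the inhibitor none of the 61 was called within either virus, beside 0% of all genes in Ad-Cre and 0.206% in Ad-LacZ. With the block 1 was called within Ad-Cre, Gabarapl2 (0.47, adjusted p = 0.0308), beside 6.08% of all genes.

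**Figure D5:**
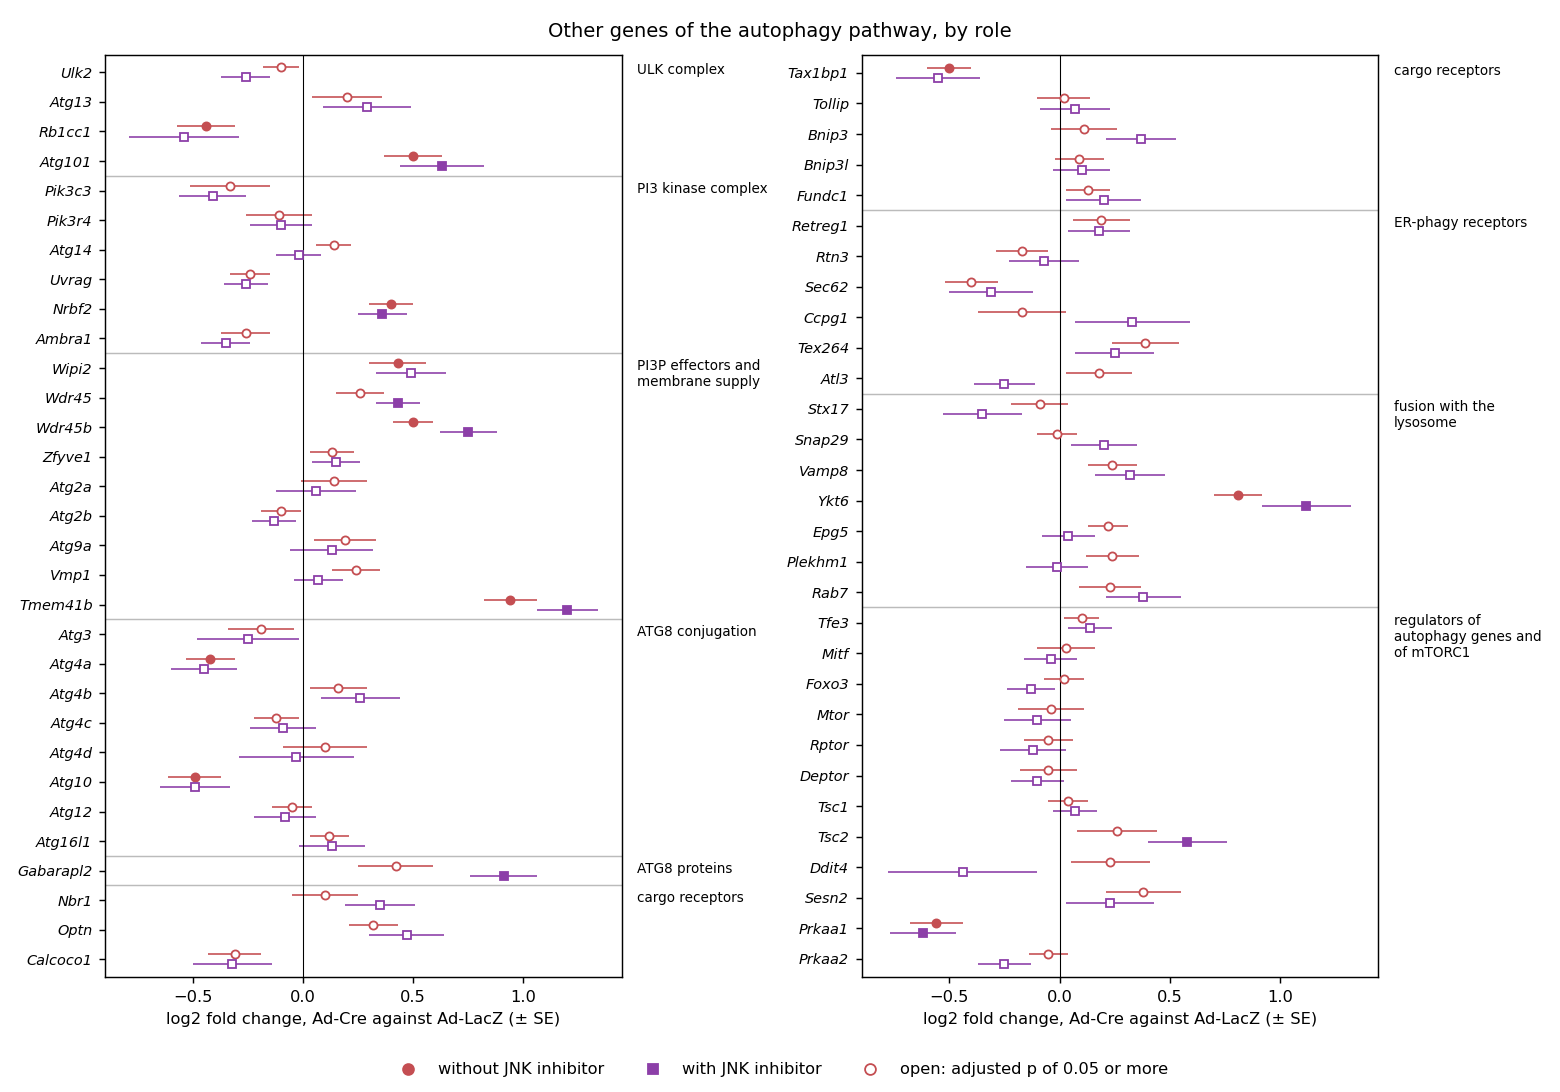
Log2 fold change ± SE of Ad-Cre against Ad-LacZ for 61 other autophagy genes in order of role, circles without and squares with the JNK inhibitor, filled where the adjusted p is under 0.05. Tmem41b (0.94 and 1.2) and Ykt6 (0.81 and 1.12) lie highest among the called genes in both, and Prkaa1 (−0.56 and −0.62) is filled below 0 in both.

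Stress regulators and genes of their branches were read from a list of 12 stress genes, and lysosomal genes from a list of 10. Of the stress genes, 5 were higher and 1 lower under Ad-Cre, beside 9.2% of all genes higher and 9.79% lower. With the inhibitor in both arms 4 were higher and 1 lower, beside 12.1 and 9.67% of all genes. Ddit3, the transcription factor CHOP, was at 8.36, 8.1, 11 and 9.43 RPKM in Ad-LacZ and 37.1, 35.3, 82.8 and 98.9 in Ad-Cre. M2 and F2 were the higher of the latter, with no overlap (2.54 ± 0.29, adjusted p = 0.00175; 2.74 with the inhibitor, adjusted p = 0.000675). Atf4 rose by 0.68 ± 0.16 (adjusted p = 0.0209) without and 0.74 with the inhibitor (adjusted p = 0.0342), but with quantile scaling it was at 0.43 (adjusted p = 0.0564) and 0.32 (adjusted p = 0.269), and on RPKM as deposited the call with inhibitor was lost (adjusted p = 0.0897). Trib3, a target of ATF4 and CHOP, rose by 1.36 (adjusted p = 0.0153) and 1.19. The remaining genes of this branch on the list, Asns and Chac1, named after their values were seen, went the other way without the inhibitor. Asns was at −0.29 (adjusted p = 0.268, but 0.0487 with the block), lower in 4 of 4 preparations, and at −0.49 with quantile scaling (adjusted p = 0.0256). Chac1 was at −0.25 (adjusted p = 0.401). The genes of this branch thus did not move in 1 direction.

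Nfe2l2, which encodes NRF2, was at 0.22 (adjusted p = 0.279) and −0.12 with the inhibitor (adjusted p = 0.675), and the known NRF2 targets did not move in 1 direction. Hmox1, heme oxygenase, rose by 1.39 ± 0.25 (adjusted p = 0.00871), while Nqo1, a quinone reductase, was at 44.2, 30.9, 48.5 and 41.9 RPKM in Ad-LacZ and 16.3, 14.2, 16.7 and 11.1 in Ad-Cre. Nqo1 thus fell without overlap (−1.42 ± 0.17, adjusted p = 0.00199, and −1.75 ± 0.12 with the inhibitor, adjusted p = 9.86e-05). The other targets on the list, named after their values were seen, were above 0 under Ad-Cre without the inhibitor. Txnrd1 rose by 0.32 (adjusted p = 0.032, but 0.294 with quantile scaling). Srxn1 was at 0.44 (adjusted p = 0.115, and 0.0184 with the block) and Gclm at 0.08 (adjusted p = 0.546). Tfeb was below the filter, at 0.495 to 0.954 RPKM in all libraries, and Tfe3 was at 0.10 (adjusted p = 0.419) and 0.14 with the inhibitor (adjusted p = 0.336). For the inhibitor none of the stress genes was called within either virus without the block, beside 0% of all genes in Ad-Cre and 0.206% in Ad-LacZ. With the block, Hmox1 (0.90, adjusted p = 0.0147) and Ddit3 (0.45, adjusted p = 0.0269) were higher with the inhibitor within Ad-Cre, beside 3.8% of all genes.

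Among the lysosomal genes, 2 of 10 were higher under Ad-Cre and none lower, a share of 20% beside 19% of all genes called. Ctsd, the protease cathepsin D, was at 166, 172, 165 and 126 RPKM in Ad-LacZ and 356, 287, 436 and 375 in Ad-Cre, without overlap (1.22 ± 0.15, adjusted p = 0.00216), and Ctsl, cathepsin L, rose by 0.38 (adjusted p = 0.0464). The call of Ctsl was lost with quantile scaling (0.23, adjusted p = 0.185) and on RPKM as deposited (adjusted p = 0.0669). With the inhibitor in both arms 3 were higher and 1 lower, beside 12.1 and 9.67% of all genes: Ctsd (1.23), the proton pump gene Atp6v0d1 (0.88), Lamp1 of the lysosomal membrane (0.68) and the pump gene Atp6v1h (−0.38). Quantile scaling gave 0.59 for Ctsd, 0.47 for Atp6v0d1 and −0.05 for Lamp1, of which the first pair stayed called (adjusted p = 0.0311 and 0.0309). Within Ad-Cre none of the 10 was called for the inhibitor without the block, as 0% of all genes were. An unadjusted p under 0.05 was found for 6, beside 9.54% of all genes. With the block 6 were higher, beside 3.8% of all genes, led by Ctsd (0.75), Lamp1 (0.72), Ctsb (0.51) and Hexa (0.49). Within Ad-LacZ none was called, beside 0.206% of all genes, and 7 had an unadjusted p under 0.05, beside 6.35% of all genes. The macrophage marker sums given above were higher in the same libraries, while the median of the single macrophage markers within Ad-Cre was −0.02. The part of these markers was not tested.

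The genes whose levels ran most like a member over the 16 libraries were found by Pearson r of scaled log2(RPKM + 1) among 12273 genes. The libraries share their preparations and viruses, so r is a description. For Sqstm1 they were Impdh2-ps (0.989), Arc (0.985) and Rnf181 (0.984), and for Map1lc3b they were Pgam1 (0.994), Ell3 (0.988) and Gon7 (0.986). Map1lc3a ran with Kat8 (0.95), Traf2 (0.938) and Riox1 (0.932), Gabarap with Romo1 (0.98), Ndufb11 (0.974) and Phgdh (0.971), and Gabarapl1 with Clec16a (0.967), Slc35b4 (0.966) and Ncald (0.955). No other member was among the 3 nearest genes of any member. Becn1 was nearest to Nfs1 (0.962), Fbxo10 (0.956) and Gm8203 (0.95), Atg7 to Mtmr9 (0.973), Armc5 (0.965) and Dcaf7 (0.963), and Ulk1 to Med20 (0.975), Edc4 (0.974) and Zfp598 (0.972). The nearest genes were less close for Atg5 (Hspa13 0.828, Lgals12 0.821, Dpm1 0.817) and Wipi1 (Gpx2-ps1 0.805, Atp5md 0.798, Perp 0.788).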

How the data were processed

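Poly(A) RNA was sequenced as paired reads and, per the study's methods and labels, aligned to the mouse genome (GRCm38 per the submitters' processing notes; the counter and annotation are not given in the sources used here). The authors deposited RPKM values per gene and library; 3 columns that no label names were not used. RPKM were divided by a factor from trimmed means of log ratios (trims 30% and 5%), log2(value + 1) was taken, and each gene that exceeded 1 RPKM in 4 or more of the libraries compared was tested with limma 3.58.1 (R 4.3.3), Benjamini-Hochberg adjusted over all genes tested. Fold changes are on this log2 scale and understate those of low genes. Depth was estimated by dividing low values by the step of 1 read; at least 90.5% of values came within 0.05 of whole reads.

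Groups came from the labels. The preparation numbers F1, M1, M2 and F2 in the labels mark the same islet preparation in every group, and same-numbered libraries deviated together (r 0.484 to 0.717 for the viruses with DMSO, 0.157 to 0.658 with inhibitor, 0.641 to 0.819 for the inhibitor in Ad-Cre, 0.126 to 0.824 in Ad-LacZ), so a fit blocked on preparation was run as an alternative. The fit was tested on simulated data. All members are named. From the pathway, stress and lysosome lists, up to 4 called genes with the largest rise and 4 with the largest fall are named per comparison (where fewer than 2 passed, those called with the block), with Atf4, Ddit3, Nfe2l2, Tfeb, Tfe3 and Hspa5, and the 3 genes most alike to each member. Members and lists were chosen with earlier results of these data known. Alternatives covered scaling, pseudocount, filter, a fit of all libraries, the block and leaving out libraries. Promoters and positions were read with Python 3.11.15.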

Additional observations from a re-analysis of the deposited data

Results flagged for a closer look

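Gabarap in the Ad-Cre library of preparation F1, at 59.1 RPKM, lay apart from the other 3 libraries of its group (34.1 to 35.6 RPKM). It was the only value among 40 sets of 4 libraries (10 genes in 4 groups) that passed Dixon's limit, and chance alone flags about 1 in 20 such sets. Without preparation F1, Gabarap under Ad-Cre was at a log2 fold change of 0.52 (adjusted p = 0.144).

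The difference between the viruses in Map1lc3b was larger with the JNK inhibitor than without it, by 0.63 on the log2 scale over the preparations (larger in 4 of 4). The interaction term of this gene had an unadjusted p of 0.000451 in limma, which brought it here, but it was not called over all genes (adjusted p = 0.425; 0.0958 in the fit blocked on preparation), and the paired exact permutation test over preparations gave p = 0.125, the smallest that 4 preparations allow.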

How the results depend on the processing

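Of 750 values of the members under alternatives, 713 kept their side of the threshold. Another 20 fell short of it, 17 newly passed it and 0 turned direction while called. Some of the 713 changed sign without being called, as Atg5 did under Ad-Cre with DMSO (log2 fold change −0.05 to 0.05). Sqstm1 and Map1lc3b were called in both comparisons of the virus under every alternative run.

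The preparation as a block, which pairs libraries of the same preparation, moved the members called from 3 to 6 under Ad-Cre with DMSO and from 0 to 3 for the inhibitor within Ad-Cre, and the other pathway genes from 11 to 20 and from 0 to 1. The share of all genes called moved with it, from 19 to 34.7% and from 0 to 6.08%. With the block and without M2 (added after seeing the data, as was the block without F2) the members called were 5 and 4, and the pathway genes for the inhibitor within Ad-Cre were 17. The share of all genes called with the block and without M2 is not given here, so these counts are not a result about autophagy genes in particular. The block changed no count of members in the other comparisons.

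With the inhibitor in both arms, 4 members were called, and 2 on RPKM as deposited, 2 without Ad-Cre + JNK inhibitor F2, 5 without Ad-Cre + JNK inhibitor M2 (also added after seeing the data) and 2 with the block and without F2. The 9 pathway genes became 15 on RPKM as deposited, 19 in a fit of all 16 libraries, 6 without that F2 library, 21 without that M2 library, and 17 and 1 with the block and without M2 or F2. A fit of all 16 libraries called 1 member for the inhibitor within Ad-Cre. For the pathway genes under Ad-Cre with DMSO, 4 were called with no filter and 6 with a filter at 0.1 RPKM. Leaving out each preparation gave 2 members under Ad-Cre with DMSO and 2 to 5 with inhibitor, and 2 to 6 and 1 to 13 pathway genes. The share of all genes called under each of these settings is not given here, so the counts are not a result about autophagy genes in particular. The causes were not tested. Atg7, the lowest member, rests on 156 to 759 estimated reads a library.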
